A study of Mus musculus with 6 samples.

Results

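The 48 genes described here encode the hydrolases, membrane proteins and proton pump of the lysosome, the acidic organelle in which cells break down proteins, sugars and lipids. They were taken by symbol from a list of 11 proteases, 12 glycosidases and sulfatases, 9 proteins of lipid breakdown, 7 membrane proteins, the regulator Tfeb with the secreted protein progranulin (Grn), and 7 proton pump proteins. All 48 were found among the 56941 genes of the table, and all 48 had enough counts to be tested. Poly(A) RNA was sequenced from ventral hippocampus of 3 mice with the genotype label NEGR1_overexpression and 3 mice labelled NEGR1_control. The study asked how raised NEGR1, a cell adhesion protein of neurons, bears on memory and on behaviour that models anxiety and depression. The sources used here do not give how NEGR1 was raised, nor the strain, age or sex of the mice.

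Lysosomal hydrolases are made in the endoplasmic reticulum, tagged with mannose 6-phosphate in the Golgi and carried to the lysosome, where the vacuolar proton pump (V-ATPase) keeps the lumen acidic enough for them to work. The transcription factor TFEB, held in the cytoplasm by the kinase mTOR at the lysosome, binds a short motif in the promoters of many of these genes. Inherited defects of the organelle, the lysosomal storage diseases, often damage neurons.

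The libraries held between 30726110 and 38108394 counts. Negr1 itself was at 185, 199 and 195 CPM in the overexpression libraries, against 181, 168 and 180 CPM in the control libraries. The labelled groups therefore did not overlap for Negr1, but the difference of 9.38% did not pass edgeR's quasi-likelihood test after adjustment (adjusted p = 0.488). The excitatory neuron genes Slc17a7, at 1212 to 1358 against 1354 to 1470 CPM, and Camk2a, at 3877 to 4149 against 4066 to 4403 CPM, were abundant throughout. Overexpression replicate 1 stood apart from the other 5 libraries in choroid plexus RNA: 12 markers of that tissue summed to 1246 CPM there and to 142 to 219 CPM elsewhere, and the marker Ttr was at 640, 18.3 and 38.3 CPM in overexpression and 3.08, 22.2 and 3.94 CPM in control libraries. Levels below are counts scaled to a common library size (CPM) with TMM factors, changes are overexpression relative to control, and an adjusted p below 0.05 over all 19354 genes tested counts as past the threshold.

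Most lysosomal genes were slightly lower in the overexpression libraries, and no single one passed the threshold in edgeR's test. Of the 48 members, 37 had a fold change below 1, where 49.6% of all genes tested did. Their median log2 fold change was -0.081, a change of -5.43%, beside a median of 0.0015 over all genes tested. In edgeR's test 0 members passed the threshold (0.0465% of all genes did, 0.0207% lower and 0.0258% higher), with the smallest adjusted p at 0.149. At an unadjusted p under 0.05 there were 12 members, all of them lower, where 9.24% of all genes were past that p, 4.6% lower and 4.64% higher. The 3 overexpression libraries lay wholly below the 3 control libraries for 14 members and wholly above them for 0, where 8.07% and 7.07% of all genes did so. DESeq2's Wald test on the same genes called 2 members, the proteases Ctsa and Lgmn, where it called 0.558% of all genes. With limma-voom 0 members and 0.031% of all genes were called. Without a filter on low counts edgeR called 4 members, Ctsa, Lgmn, Ctsd and Gaa, and 0.853% of all genes. That fit left log2 fold changes nearly as they were, at -0.28 against -0.29 for Ctsa. Its adjusted p-values could be far smaller, at 5.38e-52 against 0.0123 in the main edgeR fit for Gpnmb, a gene described below. Passing only without the filter is therefore not read as further evidence.

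Well expressed genes leaned lower in general, which sets a closer background for this list. Among the 10211 genes with a mean of at least 10 CPM, a level chosen after the data were seen, 54.8% had a fold change below 1, 6.93% were lower at an unadjusted p under 0.05, and 11.4% had all overexpression libraries below all control libraries, with 6.45% the other way. Of the 43 members at that level, 33 were below 1, 12 were lower at that p and 14 did not overlap. The members together summed to 7398, 7147 and 7144 CPM in overexpression replicates 1, 2 and 3, against 7448, 7704 and 7540 CPM in control replicates 1, 2 and 3. Every overexpression sum was below every control sum, with overexpression replicate 1 close to control replicate 1. In bulk tissue, fewer cells of a type and less RNA per cell cannot be told apart.

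**Figure D1:**
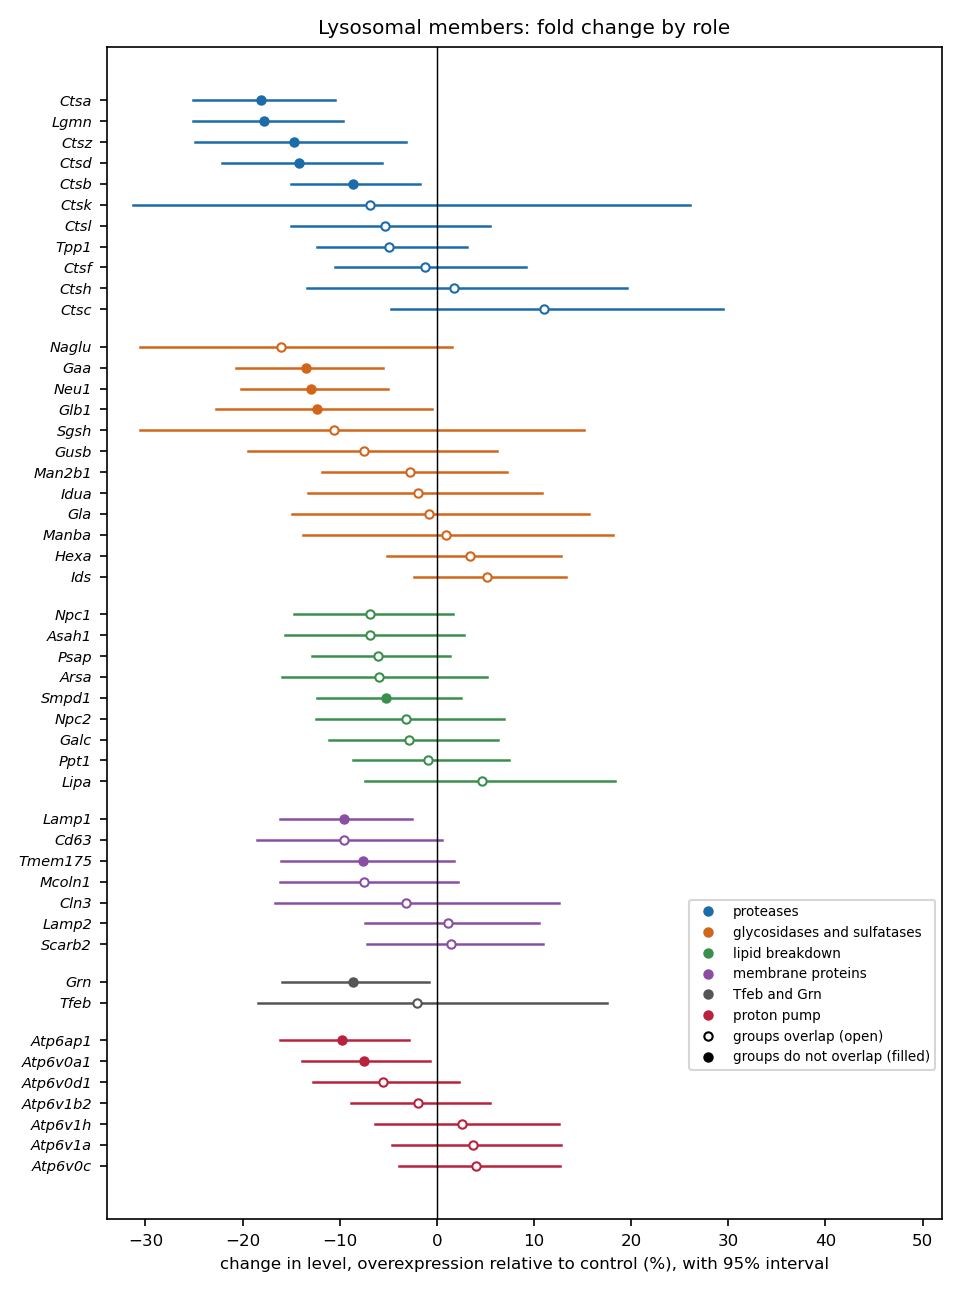
Change in level of each of the 48 members in overexpression relative to control libraries, in percent, with the 95% interval from edgeR's fit, grouped by role; filled points mark members whose 3 overexpression and 3 control libraries did not overlap. The proteases Ctsa and Lgmn lie lowest, at -18.1 and -17.8%, and all 14 filled points are below 0.

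The list spans a wide range of levels in this tissue. Per kilobase of exon, the highest was Psap, the precursor of the saposins that help enzymes reach lipids, at 484.5 CPM per kb in overexpression and 515.5 CPM per kb in control libraries. Next came Ids, the iduronate sulfatase, at 126.5 against 120.3 CPM per kb. The pump subunits Atp6v1b2, Atp6v1a and Atp6v0c followed, at 108.5 against 110.6, at 106.6 against 102.8 and at 93.97 against 90.3 CPM per kb. Tfeb was the lowest of the 48, at 1.13 against 1.15 CPM per kb, below the protease Ctsk at 1.34 against 1.45 CPM per kb. Pump subunits therefore fill much of the upper end, with 6 of 7 among the first 9 members.

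**Figure D2:**
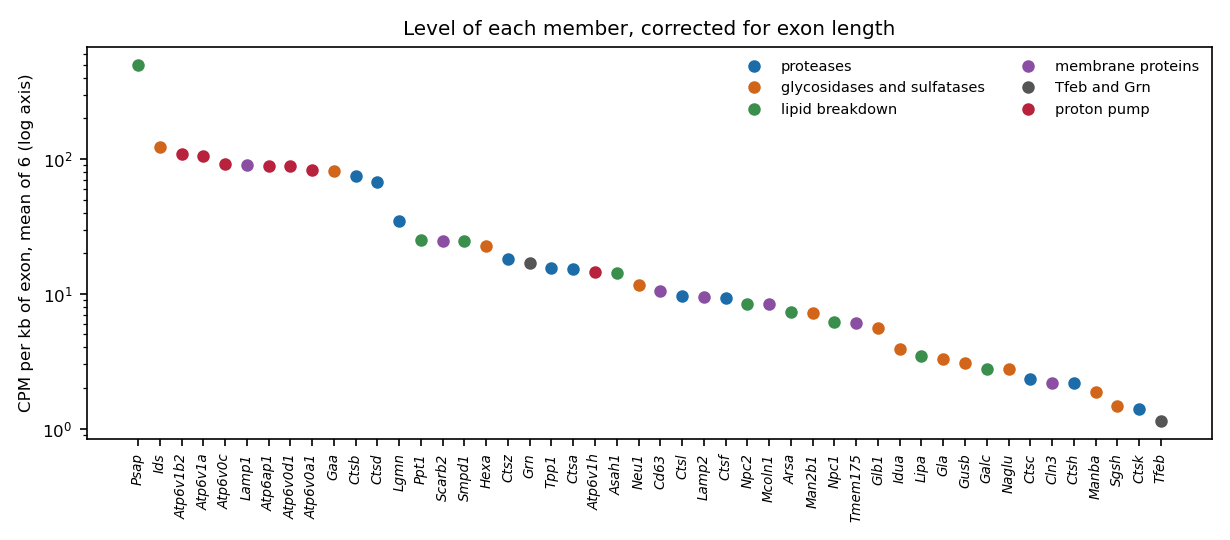
Level of each of the 48 members as the mean of 6 libraries, in CPM per kilobase of exon on a log axis, ordered from high to low and coloured by role. Psap leads at 500.0 CPM per kb, and Tfeb, at 1.14 CPM per kb, is last.

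Among the proteases, 9 of 11 were below 1 (median log2 fold change -0.10), and for 5 the overexpression and control libraries were fully separated. All 5 were lower, where 8.07% of all genes tested were separated in that direction. Ctsa, the carboxypeptidase that also protects the enzymes GLB1 and NEU1 within 1 complex, was at 68.9, 65.4 and 60.7 CPM in overexpression libraries, against 79.9, 78.0 and 80.3 CPM in control libraries. Its mean was 65.0 ± 4.13 against 79.4 ± 1.24 CPM (SD, n = 3 each), a log2 fold change of -0.29 ± 0.060 (SE) with an edgeR adjusted p of 0.149. All 3 overexpression libraries were low, and the 3 control libraries lay within a narrow band above them.

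Lgmn, the asparaginyl endopeptidase legumain that activates cathepsins, was at 79.0, 69.3 and 70.5 CPM in overexpression, against 87.8, 86.0 and 92.3 CPM in control libraries. The change was -17.8%, with a 95% interval of -25.1 to -9.68% and an edgeR adjusted p of 0.189. Overexpression replicate 1 was again the one nearest the controls for both genes, and without it both passed, with edgeR adjusted p-values of 0.0382 for Ctsa and 0.0309 for Lgmn. DESeq2, which called 0.558% of all genes, gave 0.0134 and 0.0231. Without a filter on low counts edgeR, which then called 0.853% of all genes, gave 0.00389 and 0.0047. Of the 16 alternative settings, these 3 were the only ones in which either gene passed. Without control replicate 3 the edgeR adjusted p-values were 0.457 for Ctsa and 0.573 for Lgmn.

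Ctsd, the main aspartic protease of the lysosome, was at 153, 131 and 154 CPM in overexpression libraries, against 168, 169 and 174 CPM in control libraries. The difference of -14.2% (95% interval -22.1 to -5.60%) was a log2 fold change of -0.22, and of -0.15 without overexpression replicate 2, the lowest library. Without the filter on low counts it passed with an adjusted p of 0.0406, against 0.340 with it. Ctsz, a carboxypeptidase abundant in phagocytes, was at 25.4, 21.3 and 25.9 CPM in overexpression and 26.2, 29.4 and 29.6 CPM in control libraries. Here the groups were separated by a small margin, between overexpression replicate 3 and control replicate 1. Ctsb, the most abundant cysteine cathepsin of the list, was at 436, 415 and 436 CPM against 459.8, 480.4 and 468.4 CPM, a change of -8.60% with an adjusted p of 0.452.

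The other 6 proteases had groups that overlapped, with changes from -6.92% for Ctsk to 11.1% for Ctsc. Ctsc, which activates serine proteases of immune cells, stood at 14.3 ± 1.44 against 12.8 ± 1.10 CPM (SD, n = 3 each; edgeR adjusted p = 0.693). Ctsh, an aminopeptidase, was the other protease above 1, at 9.80 ± 1.01 against 9.64 ± 0.392 CPM. Tpp1, the tripeptidyl peptidase lost in a childhood form of neuronal ceroid lipofuscinosis, was at 77.9 ± 2.97 against 82.0 ± 1.10 CPM. Ctsl was at 60.9 ± 6.14 against 64.3 ± 3.13 CPM and Ctsf at 46.3 ± 3.02 against 46.9 ± 2.61 CPM. Neither of these differed by more than the spread between libraries.

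Of the 12 glycosidases and sulfatases, 9 were below 1 (median log2 fold change -0.076), and 3 did not overlap. All 3 were lower, where 8.07% of all genes tested were separated in that direction. Gaa, the acid alpha-glucosidase that degrades glycogen and is lost in Pompe disease, was at 377, 376 and 332 CPM in overexpression libraries, against 431, 401 and 421 CPM in control libraries. Its change was -13.5% (95% interval -20.7 to -5.58%), with an adjusted p of 0.334 in edgeR's test and of 0.0394 without the filter on low counts. Neu1, the sialidase that removes sialic acid from glycoproteins, was at 39.6, 39.9 and 41.3 CPM in overexpression and 47.9, 45.1 and 45.7 CPM in control libraries. The Neu1 libraries were tight within both groups, at 40.3 ± 0.948 against 46.2 ± 1.44 CPM (SD, n = 3 each), and the edgeR adjusted p was 0.340.

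Glb1, the beta-galactosidase that cleaves ganglioside GM1, was at 17.1, 14.9 and 15.1 CPM in overexpression libraries, against 18.1, 17.4 and 18.2 CPM in control libraries. Its change was -12.3%, with an edgeR adjusted p of 0.518 and groups that did not overlap. Ids was at 664, 624 and 647 CPM against 590, 620 and 630 CPM, with overlapping groups and a change of 5.18% (edgeR adjusted p = 0.696). Ids lies above 1 together with Hexa, a subunit of the enzyme lost in Tay-Sachs disease, at 45.7 ± 1.51 against 44.2 ± 1.24 CPM, and Manba, the beta-mannosidase, at 13.1 ± 1.66 against 12.98 ± 0.782 CPM.

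The remaining 6 sugar enzymes had overlapping groups. Naglu, an enzyme of heparan sulfate breakdown, was at 6.72 ± 0.689 against 8.001 ± 0.894 CPM, with an interval of -30.6 to 1.51%. Sgsh, of the same pathway, was at 6.15 ± 1.65 against 6.88 ± 0.514 CPM, with an interval of -30.6 to 15.1%. Gusb, Man2b1, Idua and Gla lay between -7.48 and -0.824%. For these 4 the 95% intervals ran from -19.4% at the lowest to 15.6% at the highest, so changes of the size seen for Gaa were within the interval for some of them.

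**Figure D3:**
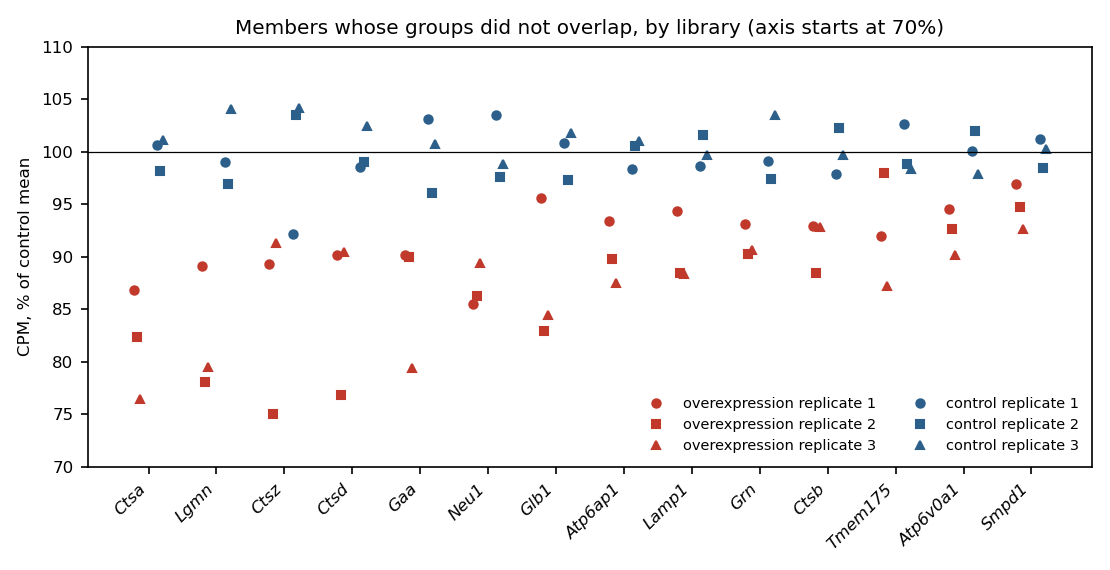
CPM of the 14 members whose groups did not overlap, in each library as a percentage of that gene's control mean, ordered by fold change; red marks overexpression and blue control, the 3 marker shapes the 3 replicates, and the axis starts at 70%. All overexpression points lie below the control points of the same gene, and overexpression replicate 1 is the overexpression point nearest the controls for Ctsa, Lgmn, Glb1, Lamp1 and Grn, among others.

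Genes of lipid breakdown leaned lower by a like amount, but few were separated by group. Of 9 members 8 were below 1 (median log2 fold change -0.077). Overexpression libraries lay wholly below control libraries for 8.07% of all genes tested, and for 11.4% of those with a mean of at least 10 CPM. Of the 9 members, 0 had an unadjusted p under 0.05, and 1 did not overlap. That was Smpd1, the acid sphingomyelinase, at 81.8, 79.9 and 78.2 CPM in overexpression libraries, against 85.4, 83.1 and 84.6 CPM in control libraries, a change of -5.22% (edgeR adjusted p = 0.695). Psap was at 1405, 1294 and 1290 CPM against 1385, 1439 and 1419 CPM, with overexpression replicate 1 among the controls. Npc1, the membrane protein that exports cholesterol, was at 70.2, 63.8 and 67.0 CPM against 69.1, 72.4 and 74.3 CPM, and overlapped in the same way. Its soluble partner Npc2 was at 45.2 ± 3.75 against 46.7 ± 1.24 CPM. Asah1 (ceramidase), Arsa (the sulfatase that degrades myelin sulfatide), Galc (the galactosidase that degrades myelin galactosylceramide) and Ppt1 (palmitoyl thioesterase) had changes of -6.89, -5.99, -2.84 and -0.931%. The acid lipase Lipa, at 23.8 ± 2.45 against 22.8 ± 0.467 CPM, was the only one of the 9 above 1.

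For the membrane proteins the median log2 fold change was -0.11, with 5 of 7 below 1. Lamp1, the major glycoprotein of the lysosomal membrane, was at 239, 224 and 223 CPM in overexpression libraries, against 249, 257 and 252 CPM in control libraries. The groups did not overlap, at 228.5 ± 8.68 against 252.8 ± 3.82 CPM (SD, n = 3 each), with an edgeR adjusted p of 0.423. Its relative Lamp2, a receptor for chaperone-mediated autophagy, had groups that overlapped, at 90.4 ± 5.36 against 89.4 ± 3.15 CPM, a change of 1.15% with an interval of -7.43 to 10.5%. Whether Lamp1 and Lamp2 differed in response was not tested.

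Tmem175, a potassium and proton channel of the lysosome, was at 34.5, 36.8 and 32.7 CPM in overexpression and 38.5, 37.1 and 36.9 CPM in control libraries, separated only narrowly. Cd63, a tetraspanin of late endosomes, was at 40.1, 35.6 and 33.8 CPM against 39.3, 40.0 and 41.7 CPM, with overexpression replicate 1 among the controls. Mcoln1, the calcium channel mucolipin, had a change of -7.46% (interval -16.2 to 2.17%) and Cln3, the gene of juvenile neuronal ceroid lipofuscinosis, one of -3.17%. Scarb2, a membrane protein that carries an enzyme to the lysosome, was at 157 ± 6.51 against 155 ± 10.3 CPM. Its groups overlapped in full.

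Grn, which encodes progranulin, a secreted protein that reaches the lysosome and is lost in a form of frontotemporal dementia, was at 57.6, 55.8 and 56.0 CPM in overexpression libraries. The control libraries had 61.3, 60.2 and 64.0 CPM, all above the overexpression libraries, and the change was -8.67% (edgeR adjusted p = 0.492). Tfeb was at 6.86, 6.37 and 5.94 CPM against 6.88, 6.68 and 6.0 CPM. For this regulator the groups overlapped, with a change of -2.09% and an interval of -18.5 to 17.6%, and its sign turned in 4 of the 16 alternative settings.

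The median of the proton pump stood near no change, but 2 of its members were lower. Of 7 members 4 were below 1. In edgeR's test 2 were lower at an unadjusted p under 0.05, where 4.6% of all genes tested were. The same 2 had overexpression libraries wholly below control libraries, where 8.07% of all genes tested did. The median log2 fold change was -0.028, and 0.0028 when control replicate 2, the highest library for the pump, was left out. Atp6ap1, an accessory protein of pump assembly, was at 265.5, 255 and 249 CPM in overexpression libraries, against 280, 286 and 287 CPM in control libraries, a change of -9.78% (interval -16.2 to -2.89%; edgeR adjusted p = 0.408). Atp6v0a1, the neuronal form of the large membrane subunit, was at 534, 524 and 509.9 CPM against 566, 577 and 554 CPM (edgeR adjusted p = 0.491). For both of these the groups did not overlap.

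The proton pore subunit Atp6v0c was at 304, 335 and 316 CPM in overexpression and 299, 317 and 300.2 CPM in control libraries. Atp6v1a, the catalytic subunit on the cytoplasmic side, was at 612, 657 and 664 CPM against 607, 665 and 593 CPM. Both of these stood above 1 with groups that overlapped, as did Atp6v1h, a subunit that regulates pump activity, at 144 ± 3.90 against 140.0 ± 11.4 CPM. Atp6v1b2, the other nucleotide-binding subunit, was at 580, 581 and 565 CPM against 578, 612 and 570.5 CPM, and Atp6v0d1, which joins the rotor to the membrane ring, at 154 ± 2.06 against 163 ± 7.90 CPM. The 95% intervals, such as -8.85 to 5.49% for Atp6v1b2 and -3.88 to 12.7% for Atp6v0c, leave room for changes of several percent in either direction.

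A share of the members hold the TFEB motif in their promoters. The list was not chosen by the motif, but TFEB is known to bind it in many of these genes. A share above that of all genes was therefore likely beforehand and is no independent result. The motif, known as the coordinated lysosomal expression and regulation (CLEAR) element, was searched as its 7 letters TCACGTG on both strands in RefSeq windows (GRCm38.p6) that run from 250 bases before to 50 bases after a transcription start. Windows were at hand for 42 of the 48 members, and 14 of these held a match (33.3%), where 4.29% of 27018 genes with a window did. The 27018 include many genes not tested here, unlike the members. Among tested genes with a window, 801 held a match and 12023 did not, a somewhat higher share. The motif was chosen after the values were seen. Of the 14 members whose groups did not overlap, 6 held it, namely Ctsa, Ctsd, Lgmn, Gaa, Glb1 and Lamp1, and Ctsb had no window. It was also present in members whose groups overlapped. These were the pump subunits Atp6v1a, which stood above 1, and Atp6v0d1, with Arsa, Cln3, Gla, Mcoln1, Naglu and Sgsh. For Ctsa, Ctsd, Lgmn, Gaa, Glb1 and Atp6v1a, 1 match with 10 bases on either side is shown on the gene's own strand. The shared core can thus be compared. Capitals mark the match, a reverse-strand match reads CACGTGA, and the 8 letters TCACGTGA are matches on both strands that overlap and were merged.
Ctsa: gagcaaactgTCACGTGAtgcagatgct
Ctsd: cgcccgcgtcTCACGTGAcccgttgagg
Lgmn: ggaatgtctgTCACGTGgtccatttta
Gaa: ttctgtgcgaTCACGTGtttgactctg
Glb1: tgcttctgagTCACGTGgcctacagag
Atp6v1a: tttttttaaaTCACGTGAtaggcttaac
These stretches lie at chr2:164833750-164833777 (plus strand) for Ctsa, chr7:142387909-142387936 (minus) for Ctsd, chr12:102439126-102439152 (minus) for Lgmn, chr11:119267812-119267838 (plus) for Gaa, chr9:114401019-114401045 (plus) for Glb1 and chr16:44139374-44139401 (minus) for Atp6v1a.

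Lamp1 held the most matches of any member, 4 within the 100 bases before its start (chr8:13159061-13159160, plus strand), and the whole stretch is shown to give their spacing.
Lamp1: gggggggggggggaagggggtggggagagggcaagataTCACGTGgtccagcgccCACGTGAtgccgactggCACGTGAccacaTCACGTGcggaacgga
Members with a match (14) had a median log2 fold change of -0.15 and 13 were below 1, while for the 28 with a window but no match it was -0.045 and 20 were below 1. Groups did not overlap for 6 of the 14 and for 7 of the 28. This contrast depended on the form of the motif. For the 8 letters TCACGTGA, held by 7 members (16.7%, where 1.13% of genes held it), the median was -0.082 with a match and -0.079 without, and 2 of 7 against 11 of 35 members did not overlap. For the 6 letters CACGTG, held by 16 members (38.1%, where 8.09% of genes held it), it was -0.13 with a match and -0.045 without. Over all genes tested that had a window, the 801 with a match to the 7 letters had a median of -0.0098, with 52.6% below 1, and the 12023 without had a median of -0.0035, with 51% below 1. A match is a sequence of letters, not a measured binding site. The difference between members with and without a match was not tested.

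Other genes of the same pathways came from lists written beside the members. Of 105 tested genes in 5 such lists, 66 were below 1 (62.9%, where 49.6% of all genes tested were), with a median log2 fold change of -0.045. Of the 86 with a mean of at least 10 CPM, 61.6% were below 1, where 54.8% of all genes at that level were. An unadjusted p under 0.05 was found for 10 of the 105 (9.52%), a share near the 9.24% of all genes; all 10 were lower, where 4.6% of all genes were lower at that p. The 2 that passed edgeR's threshold both fell. Atp6v0d2, a pump subunit form of osteoclasts and macrophages, had 2, 2 and 4 counts in overexpression libraries and 19, 37 and 28 in control libraries, a log2 fold change of -3.38 ± 0.48 (SE; adjusted p = 0.0189). Gpnmb, a membrane glycoprotein of lysosome-rich phagocytes, was at 5.34, 3.801 and 4.66 CPM against 14.2, 21.9 and 15.5 CPM, a log2 fold change of -1.90 (adjusted p = 0.0123). For both genes all overexpression libraries lay below all control libraries. DESeq2 called Gpnmb (adjusted p = 5.64e-25) but gave Atp6v0d2 no adjusted p, its unadjusted p being 1.13e-06. The Atp6v0d2 call was lost on leaving out overexpression replicate 2 (adjusted p = 0.115) or 3 (0.056), or control replicate 2 (0.232) or 3 (0.0847), and that of Gpnmb without overexpression replicate 3 (adjusted p = 0.106).

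Among the other lysosomal enzymes, 20 of 29 tested were below 1 (median log2 fold change -0.044). Pld3, a nuclease of neuronal lysosomes, was at 399, 363.5 and 342.5 CPM in overexpression libraries, against 436, 450.5 and 448 CPM in control libraries (edgeR adjusted p = 0.150; 0.0182 without overexpression replicate 1). Plbd2, at 64.5 ± 2.81 against 73.2 ± 2.09 CPM, and the sulfatase Arsb, at 125 ± 4.37 against 140.1 ± 7.78 CPM, did not overlap either. Ctss, a protease high in microglia, had groups that overlapped, at 65.7, 51.2 and 90.5 CPM in overexpression and 63.3, 71.7 and 73.1 CPM in control libraries, with overexpression libraries on both sides of the controls.

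In the membrane list, 15 of 25 were below 1. Cd68, the lysosomal membrane glycoprotein of phagocytes, was at 7.13, 6.35 and 7.96 CPM in overexpression libraries, against 10.6, 11.01 and 11.6 CPM in control libraries. Its log2 fold change of -0.63 was larger in size than that of any of the 48 members, and its adjusted p was 0.0862 in edgeR's test and 0.0021 in DESeq2's. Abca2, a lipid transporter of oligodendrocytes, was at 295.7 ± 22.3 against 330.7 ± 17.4 CPM, with overlap. The remaining pump subunits centred on no change, with 9 of 17 below 1 and a median log2 fold change of -9.8e-04. Tcirg1, the membrane subunit of macrophages and osteoclasts, was at 12.8 ± 0.393 against 14.5 ± 2.20 CPM. Atp6v1g2, the neuronal form of a stalk subunit, was at 372 ± 15.2 against 402 ± 16.7 CPM.

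Genes that sort the hydrolases and control TFEB had 1 of 16 and 1 of 18 tested at an unadjusted p under 0.05, both lower and neither past the threshold. These shares, 6.25 and 5.56%, are near those of all genes (9.24% in either direction, 4.6% lower). The sorting gene was Nagpa, which uncovers the mannose 6-phosphate tag, at 7.56 ± 0.777 against 9.003 ± 0.440 CPM (adjusted p = 0.524). M6pr, the receptor that reads that tag, was at 85.9 ± 3.51 against 91.2 ± 1.18 CPM, and Gga1, an adaptor for the receptor, at 61.2 ± 2.36 against 65.7 ± 5.65 CPM. The control gene was Mtor, at 154, 140 and 146 CPM in overexpression libraries, against 162, 169 and 165 CPM in control libraries (adjusted p = 0.372). Lamtor2, of the scaffold that holds mTOR at the lysosome, was at 17.5 ± 0.910 against 19.7 ± 1.52 CPM, and Mlst8, of the mTOR complex, at 24.5 ± 2.23 against 26.9 ± 1.65 CPM.

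Some lists of cell type markers were lower beside the members and others were not. Of the 16 microglia markers 10 were below 1 (log2 fold change: median -0.015, lowest -0.38), and 1 was lower at an unadjusted p under 0.05. Their sums overlapped, at 406 to 480 CPM in overexpression libraries and 432 to 474 CPM in control libraries, and the defining genes were P2ry12 at 31.9 ± 0.960 against 31.2 ± 1.53 CPM and Tmem119 at 24.4 ± 3.62 against 22.3 ± 2.06 CPM. The sums of the activated phagocyte markers did not overlap: 16 genes summed to 146 to 164 CPM against 181 to 198 CPM, 11 of 15 tested were below 1, and Gpnmb and Cd5l passed the threshold, Cd5l with 1, 0 and 0 counts against 42, 81 and 43. Within that list Mrc1 and Cd163, of macrophages at the brain's borders, chosen after their values were seen, stood the other way, at 5.89 ± 0.759 against 4.37 ± 0.310 CPM and at 3.55 ± 0.558 against 2.44 ± 0.309 CPM. All 14 oligodendrocyte markers were below 1, summing to 3360 to 3977 CPM against 4183 to 5298 CPM, with Mbp at 1492 ± 121 against 2030 ± 220.3 CPM. Neuron markers summed to 13950 to 14120 against 14320 to 15310 CPM, with 12 of 15 below 1. Their median log2 fold change of -0.078 was near the -0.081 of the members. Astrocyte markers overlapped, at 8143 to 8963 against 8334 to 9094 CPM, with a median log2 fold change of -0.014. Endothelial markers summed to 323.5 to 341 against 295 to 346 CPM, and those of meningeal fibroblasts, all 11 above 1, to 195 to 248 against 158.5 to 217 CPM. The part of these cell types in the values of the members was not tested.

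**Figure D4:**
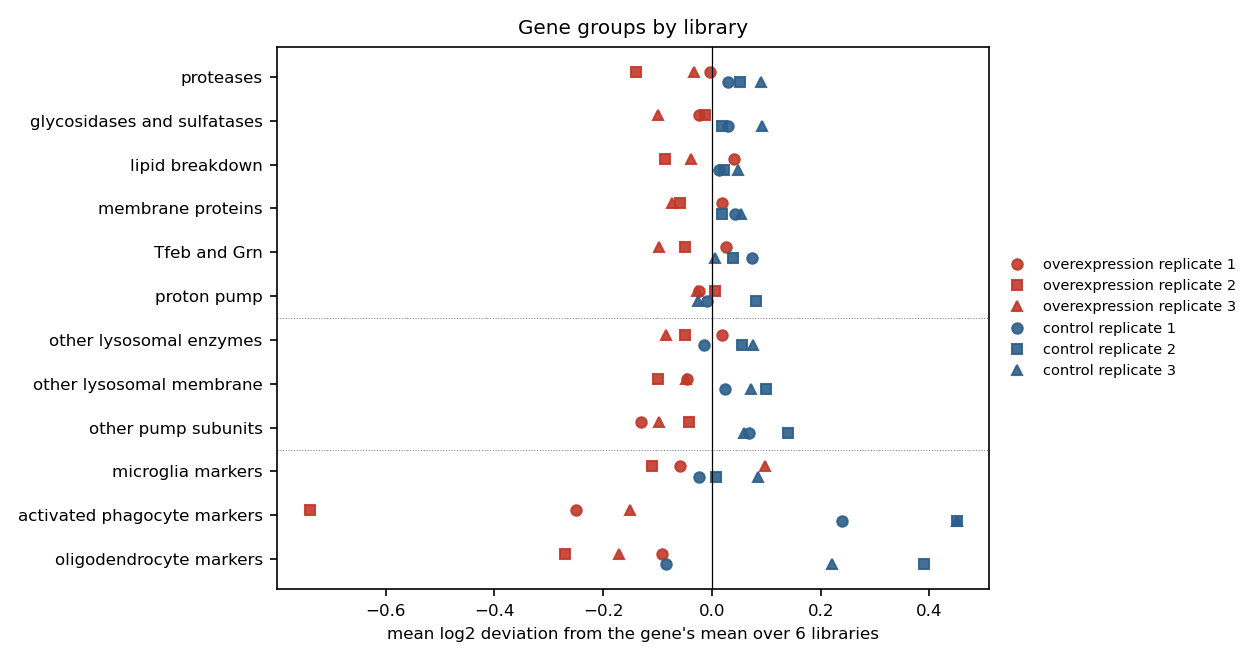
Mean log2 deviation of each gene group from its genes' mean over the 6 libraries, for the 6 roles of the members (top), the other pathway lists (middle) and 3 marker lists (bottom); red marks overexpression, blue control and the shapes the replicates. Among the 6 roles, the proteases and the glycosidases with sulfatases separate the groups and the proton pump does not. In the middle, the other pump subunits, which include Atp6v0d2, and the other lysosomal membrane genes, which include Gpnmb, also separate them. The other lysosomal enzymes do not. The means are unweighted: Atp6v0d2 has a log2 fold change of -3.38 from few counts, while the median of its list is -9.8e-04. Summed CPM of the membrane list overlap, at 1328 to 1396 in overexpression and 1383 to 1432 in control libraries. Activated phagocyte markers spread far wider than the lysosomal groups.

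Libraries differed within groups as well as between them. For all 48 members together, every overexpression library lay below every control library, with a spread between replicates of 0.0277 (SD, log2). Over all 48 members the mean log2 deviation was 0.0016, -0.061 and -0.059 in overexpression replicates 1, 2 and 3, against 0.024, 0.037 and 0.057 in control replicates 1, 2 and 3. By role, overexpression replicate 2 was lowest for the proteases, at -0.14, and overexpression replicate 3 for the glycosidases and sulfatases, at -0.10. Overexpression replicate 1, which carried the choroid plexus RNA, was the closest to the controls. Without it the median log2 fold change of the members was -0.11, 17 members were lower at an unadjusted p under 0.05 and 2 passed the threshold. In that fit 6.1% of all genes were lower at that p, against 4.6% with all 6 libraries, and 0.318% passed the threshold, against 0.0465%.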

How the data were processed

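The authors deposited raw counts in 1 table, by Ensembl gene and library, and all of its sample columns were used. Per the submitters' processing notes the tools were featureCounts 2.0.3, STAR 2.7.10 and Trimmomatic 0.36, and both mm10 and GRCm39 are listed as builds. The sources used here do not give which build, annotation and strand option lie behind the counts; reads of near-identical or overlapping genes could have been split or dropped at that step. Libraries were dUTP strand-marked, per the labels' protocols.

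Groups came from the labels, 3 separate mice each. Symbols were matched for 51948 of 56941 identifiers, and for all 265 list entries. edgeR 4.0.16 in R 4.3.3 (quasi-likelihood, robust, TMM, default filter on low counts, group as the only term) was fitted on the whole table, with Benjamini-Hochberg adjustment over 19354 genes. Standard errors came from the F statistic. DESeq2 1.42.0 and limma 3.58.1 (voom with sample weights) were alternatives. Exon lengths and GC content came from GENCODE M21. All library pairs differed by more than sampling noise (chi-square per degree of freedom 4.28 to 12.9). Members, lists and rules were chosen with earlier results of these data known. Members named with values per library were those with an unadjusted p under 0.05, those without overlap, the 2 with the smallest p in each role and the 5 with the highest level per length. Genes of the other pathway lists named were those past the threshold and the 3 with the smallest p in each list, with Ctss and Tcirg1; some genes under that rule are not reported here. The fit was tested on simulated counts with known changes. It recovered 26% of 50 genes changed by a fold of 1.25 and 46% of 50 changed by a fold of 1.5. At folds of 2 and 4 it recovered 68% and 90% of 50 genes each. It also made 20 false calls among the 19076 genes run. That is a larger share of its calls than the threshold of 0.05 aims at, so adjusted p-values may be too small.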

Additional observations from a re-analysis of the deposited data

How the results depend on the processing

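Across 16 alternative settings the members stayed lower on balance: 34 to 37 of 48 were below 1, and their median log2 fold change was -0.11 to -0.061 (-0.063 with a correction for GC content). The number of members past the threshold was 2 with DESeq2 and 4 without a filter on low counts; leaving out 1 library gave 0 to 2, the 2 being without overexpression replicate 1. Groups did not overlap for 16 to 23 members when 1 library was left out, which leaves fewer values to overlap; 23.4 to 29.2% of all genes then did not overlap, against 15.1% with all 6. The 23 was without overexpression replicate 1 (22 lower, 1 higher; 15.1% and 14.1% of all genes). Over all genes, 108 passed with DESeq2, 304 without a filter, 5 with at least 1 CPM in 3 libraries, 26 with a replicate block and 29 with the GC correction and a replicate block; leaving out 1 library gave 2 to 63 (2, 3 and 5 without control replicate 2, control replicate 3 or overexpression replicate 2, and 39 and 63 without control replicate 1 or overexpression replicate 1). Of the other pathway genes 5 passed without a filter and 1 with at least 1 CPM in 3 libraries, where Atp6v0d2 was not tested; DESeq2 called 3, Gpnmb, Cd68 and Pld3, with no adjusted p for Atp6v0d2. Leaving out 1 library gave 0 to 3. The cause of these shifts was not tested. Same-numbered libraries correlated by 0.0172 to 0.0232 in their deviations from the group means, and the other pairings by -0.0344 to 0.0148. The same-numbered values were thus the highest, but all were near 0, and the numbers are not taken as pairs. With the block 0 members passed. With 3 mice per group, a change like that of Lamp1 (-9.61%) had an unadjusted 95% interval of -16.2 to -2.56%, but an edgeR adjusted p of 0.423. Smaller changes could often not be told from 0 even by the unadjusted interval.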
